A study of Mus musculus with 26 samples.

Results

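The 10 genes followed here were Tlr3, Ifih1, Ddx58, Dhx58, Mavs, Ticam1, Irf3, Tbk1, Tlr7 and Tlr2, which encode the sensors of double-stranded RNA, their adaptors and neighbouring receptors. They were picked by symbol, and all 10 were found among the 31053 genes of the microglia matrices and among the 30406 genes that the nuclei matrices have in common. Their levels were read in 18 libraries of sorted microglia and in the nuclei of 8 cortex libraries, 26 libraries in all, to ask which cells of the developing mouse somatosensory (S1) cortex carry the transcripts needed to sense Poly(I:C), which mimics viral double-stranded RNA. Pregnant C57Bl/6N dams received Poly(I:C), the maternal immune activation (MIA) groups, or saline at E12.5. Wild-type microglia were sorted as Cd11b+, Cx3cr1+ and Cd45low cells at E13 (3 saline and 3 MIA libraries), E15 (3 and 3) and P14 (4 and 2). All were labelled as mixed in sex, apart from the P14 saline libraries 3 female and 3 male. Embryonic libraries were pools of embryos. Nuclei came from the frozen prospective S1 cortex of male E15.5 embryos, either wild-type or Csf1r-/- (Csf1r-null, deleted for the receptor that microglia need to develop), after saline or MIA, with 2 libraries per group.

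Poly(I:C) is read by separate routes. TLR3 sits in the endosome and signals through the adaptor TRIF, encoded by Ticam1. In the cytoplasm the helicases MDA5 (Ifih1) and RIG-I (Ddx58) bind double-stranded RNA and signal through the mitochondrial adaptor MAVS, with LGP2 (Dhx58) as a regulator of both. Either route reaches the kinase TBK1, which phosphorylates the transcription factor IRF3 and so switches on type I interferon. TLR7 recognises single-stranded RNA and TLR2 bacterial lipoproteins, and both signal through MyD88. Ifih1, Ddx58 and Dhx58 are themselves interferon-stimulated genes.

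In the mm10 (GRCm38) annotation the receptor genes lie at chr8:45395665-45411080 on the minus strand (Tlr3), chrX:167304929-167330558, minus (Tlr7), and chr3:83836272-83841767, minus (Tlr2). The helicase genes lie at chr2:62595798-62646255, minus (Ifih1), chr4:40203773-40239828, minus (Ddx58), and chr11:100694884-100704271, minus (Dhx58). The adaptor, kinase and factor genes lie at chr2:131234063-131248025, plus (Mavs), chr17:56269319-56276786, minus (Ticam1), chr10:121546455-121586787, minus (Tbk1), and chr7:44997648-45002848, plus (Irf3). All are protein coding, and none overlaps another annotated gene on its own strand. Gm45542, Dhx58os and Bcl2l12 overlap Tlr3, Dhx58 and Irf3 on the other strand.

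Because the helicase genes respond to interferon, the promoters of the members were searched on both strands for 2 spellings of the interferon-stimulated response element, GAAANNGAAA and GAAANGAAA, over the 300 bases from 250 before to 50 after the RefSeq start site (GRCm38.p6). Of the 10 genes, 8 matched an entry, and Dhx58 and Tlr7 are only named. The 3 matches, 1 in Ifih1 and 2 in Ddx58, are shown because the levels of these genes were highest in interferon-responsive microglia, as described later. Capitals mark the motif, and each stretch reads 5′ to 3′ on the gene's own strand.
Ifih1, chr2:62646206-62646235, minus strand: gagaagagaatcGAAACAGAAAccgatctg
Ddx58, chr4:40239804-40239833, minus strand: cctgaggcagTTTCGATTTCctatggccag
Ddx58, chr4:40239866-40239895, minus strand: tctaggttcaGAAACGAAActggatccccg
The Ifih1 motif began 33 bases after the start site. In Ddx58 1 motif began 3 bases after the start, spelled on the opposite strand, and the other 60 bases before it (position -60). Neither spelling occurred in the windows of Tlr3, Mavs, Ticam1, Irf3, Tbk1 and Tlr2. The 250 bases before the RefSeq start of Tlr3, chr8:45410381-45410630, lie inside the gene as annotated, which runs to 45411080. The bases before that annotated 5′ end were therefore not searched. In Tlr2 the 250 bases, chr3:83841609-83841858, lie partly inside the gene, which runs to 83841767. Over 32851 promoter windows 3.44% held the first spelling, 3.17% the second and 6.27% either, and a match describes the letters only.

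Levels are given as CPM, the unique molecular identifiers (UMIs) of a gene per 1000000 UMIs of the microglia of a library, or of a class of nuclei. After filters, doublet removal and removal of neuron-like, erythroid and, at P14, border macrophage and astrocyte-like clusters, 60989 microglia were counted, 267 to 5525 per library with 5958808 to 95939698 UMIs. They were 91.3% to 98.6% of the cells of each library except E15 MIA 1, where they were 74.8%. The homeostatic markers of microglia summed to 8790 to 9362 CPM at E13, 12439 to 18821 at E15 and 31082 to 34818 at P14. E15 saline 1 stood apart, with 26.8% of its microglia in dividing clusters against 6.11% to 9.35% in the other E15 libraries and 23.3% to 34.3% at E13. Several libraries shared cell barcodes, the 2 smallest for the largest part of their cells. Of 375 cells of E13 MIA 2, 258 had a barcode of P14 saline 3 female, 239 of P14 saline 3 male, 230 of E15 MIA 3 and 157 of E15 saline 3. Of 280 cells of E13 MIA 1, 133 had one of P14 MIA 1 and 107 of P14 saline 1. Cells whose barcode was deeper in another library were 0.357% and 1.07% in E13 MIA 1 and 2. They were 16.2% in E15 MIA 3, 6.45% and 5.77% in P14 saline 3 female and male, and 5.56% in E13 saline 1. Keeping each shared barcode in 1 library changed no call of a member. In all comparisons libraries were the replicates, so p-values measure the spread between these libraries and not between litters. P14 saline 3 female and 3 male carry 1 replicate number and were counted as 2 libraries. In the paper the wild-type embryos used for nuclei were littermates of the Csf1r-null ones. The labels give no litter, and the main MIA fits did not model it.

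Tlr3 transcripts were present in microglia at every stage and were most abundant at P14. At E13, Tlr3 stood at 16.3, 12.1 and 15.0 CPM in saline libraries 1, 2 and 3 and at 15.4, 21.1 and 12.3 in MIA libraries 1, 2 and 3. At E15 the saline libraries held 15.97, 26.7 and 29.6 CPM and the MIA libraries 12.7, 25.2 and 28.2. At P14 the saline libraries 1, 2, 3 female and 3 male held 102, 93.2, 72.7 and 82.9 CPM and the 2 MIA libraries 92.3 and 81.8. Each P14 library was therefore above each embryonic one, whereas E15 saline 1 and E15 MIA 1 lay within the E13 range and the saline and MIA libraries overlapped at all 3 stages. The saline means were 14.4 ± 2.16 (SD, n = 3), 24.1 ± 7.16 (n = 3) and 87.6 ± 12.6 CPM (n = 4).

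**Figure D1:**
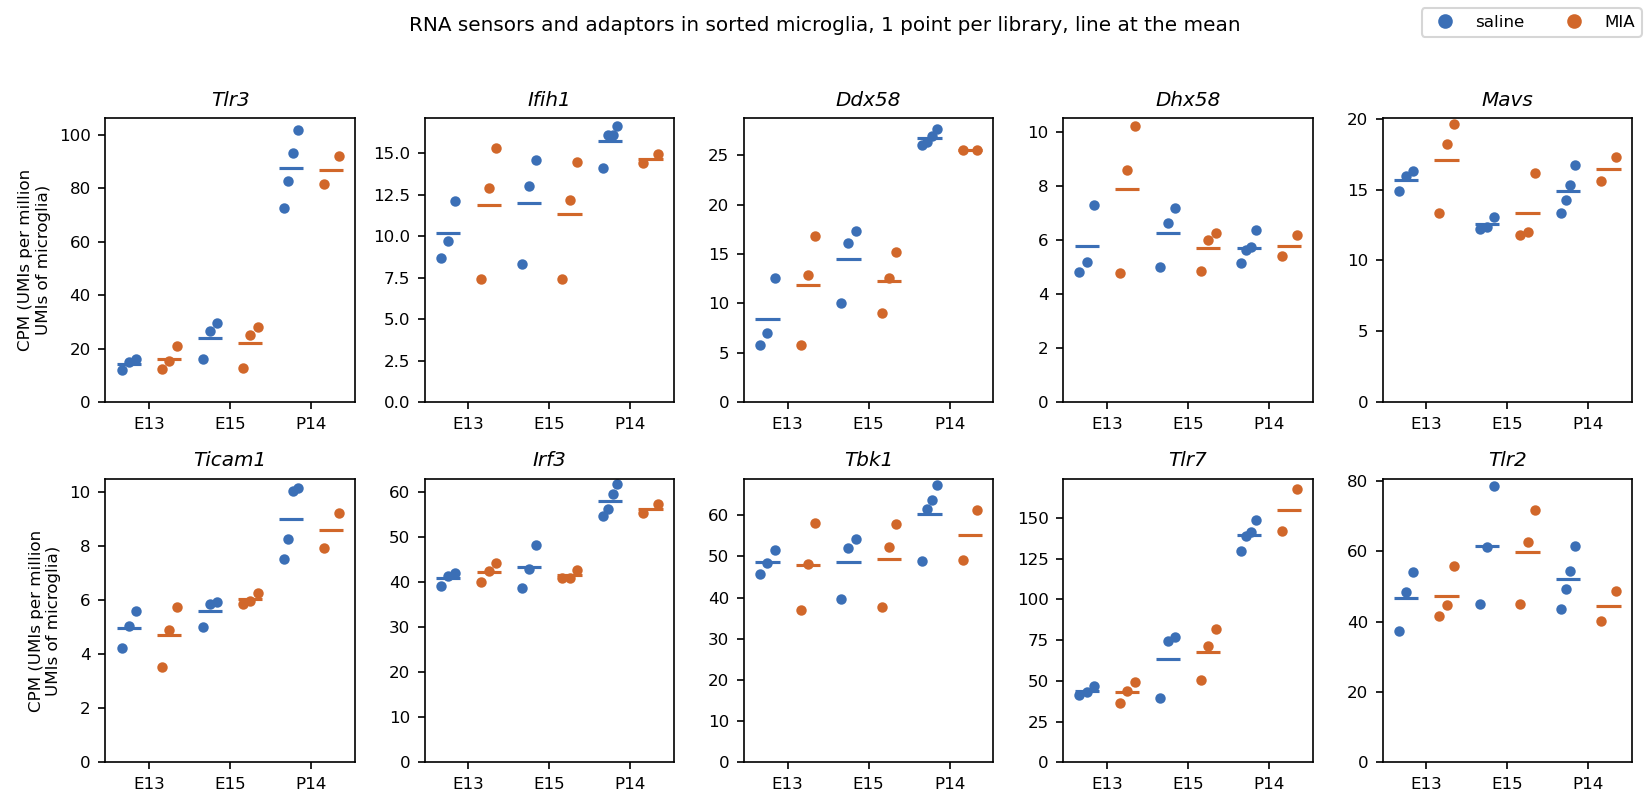
Level of each member in CPM (vertical axes, linear and starting at 0) in the 18 microglia libraries at E13, E15 and P14, with saline in blue, MIA in orange, 1 point per library and a line at the group mean. Tlr3 and Tlr7 were at their highest in the 6 P14 libraries, and saline and MIA points of Tlr3 overlap at each stage.

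Among saline microglia, Tlr3 was 1.68-fold higher at E15 than at E13 (log2 change 0.75 ± 0.22 SE, edgeR adjusted p = 0.0257) and 3.11-fold higher at P14 than at E15 (1.64 ± 0.21, 95% interval 1.18 to 2.09, edgeR adjusted p = 7.79e-05). The 2 steps share the E15 saline libraries. Across all genes tested, 26.7% were called between E13 and E15 (15.1% higher, 11.6% lower) and 52.8% between E15 and P14 (25.8% higher, 27% lower), so a call by itself was common. The rise from E15 to P14 passed in all 16 alternative analyses. The smaller rise from E13 to E15 passed in 10 of 16: it lost its call without E13 saline 1, 2 or 3, or E15 saline 2 or 3, each taken out singly (log2 changes 0.60 to 0.79, edgeR adjusted p up to 0.103), and in the fit blocked on replicate number (0.74, edgeR adjusted p = 0.0591).

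Ticam1, the adaptor of TLR3, was detected in all libraries at low levels. Saline microglia held 4.23, 5.05 and 5.601 CPM at E13, 5.01, 5.85 and 5.93 at E15, and 7.54, 8.27, 10.1 and 10.2 at P14 (libraries 1, 2, 3 female and 3 male). The P14 libraries did not overlap the others. Ticam1 was 1.36-fold higher at P14 than at E15 (0.44 ± 0.15, edgeR adjusted p = 0.0234), a call lost without E15 saline 1 or either of the P14 saline 3 libraries (0.38 to 0.40), without the filter on low counts, and with the block (0.36, edgeR adjusted p = 0.196). Between E13 and E15 the Ticam1 change was 0.18 and was not called.

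Of the 3 helicase genes, Ddx58 was called at both steps and the others at neither. Ddx58 held 12.6, 6.97 and 5.77 CPM in the E13 saline libraries, 10.1, 16.2 and 17.3 at E15 and 26.9, 26.4, 27.7 and 26.1 at P14. The P14 libraries of Ddx58 thus lay within a narrow band above the rest, while E13 saline 1 exceeded E15 saline 1. Ddx58 was 1.76-fold higher at E15 than at E13 (0.82 ± 0.25, edgeR adjusted p = 0.035) and 1.57-fold higher at P14 than at E15 (0.65 ± 0.23, edgeR adjusted p = 0.0357). Each of these calls held in 10 of 16 alternatives. The first was lost without E13 saline 2 or 3, E15 saline 2 or 3, or P14 saline 2 (0.60 to 0.82) and with the block (0.85, edgeR adjusted p = 0.094). The second was lost without E15 saline 1 or any 1 of the 4 P14 saline libraries (0.45 to 0.68) and with the block (0.62, edgeR adjusted p = 0.212).

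Ifih1, the MDA5 gene, and Dhx58 were not called. Ifih1 stood at 8.70 to 12.1 CPM in E13 saline, 8.36 to 14.6 in E15 saline and 14.1 to 16.7 in P14 saline microglia, with overlap between E13 and E15 and between E15 and P14. Its log2 changes at the 2 steps were 0.25 and 0.16 (edgeR adjusted p = 0.319 and 0.455). Without E15 saline 1 the first step was called (0.43, edgeR adjusted p = 0.0197). Dhx58 lay between 4.81 and 7.29 CPM in all 10 saline libraries, and its change from E15 to P14 was -0.39 ± 0.18 (edgeR adjusted p = 0.0886), called without E15 saline 3 (-0.55, edgeR adjusted p = 0.0181).

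Mavs, the adaptor that both helicases need, and the downstream Tbk1 and Irf3 were not called at either step. Mavs lay between 12.2 and 16.7 CPM in all saline microglia, with changes of -0.30 ± 0.11 (edgeR adjusted p = 0.0668, called at -0.37 without E15 saline 1) and 0.00. Tbk1 lay between 39.6 and 67.3 CPM, with changes of 0.02 and 0.07. Irf3 held 39.2 to 42.0 CPM at E13, 38.7 to 48.4 at E15 and 54.8 to 61.9 at P14, so that its P14 libraries did not overlap the embryonic ones in CPM. After TMM scaling the Irf3 change from E15 to P14 was 0.18 ± 0.09 (edgeR adjusted p = 0.111). With library sizes alone it was 0.42 (edgeR adjusted p = 0.00464), but that scaling moved the median of all genes from 0.03 to 0.27.

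Tlr7, the single-stranded RNA receptor, rose from E15 to P14. It held 46.9, 43.1 and 41.1 CPM in E13 saline libraries 1, 2 and 3, 39.2, 74.7 and 76.8 at E15 and 149, 141, 130 and 139 at P14 (libraries 1, 2, 3 female and 3 male). The P14 libraries were all above the E15 ones, and E15 saline 1 was again low, below the E13 saline range. Tlr7 was 1.87-fold higher at P14 than at E15 (0.90 ± 0.19, 95% interval 0.49 to 1.32, edgeR adjusted p = 0.00203), a call kept in all 16 alternatives. Its change between E13 and E15 was 0.55 ± 0.20 and was not called (edgeR adjusted p = 0.0601), but was called without E15 saline 1 (0.78, edgeR adjusted p = 0.000231), with DESeq2 and without the filter on low counts.

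Tlr2 was called lower, not higher, at P14. Its saline libraries spanned 37.2 to 54.2 CPM at E13, 44.9 to 78.5 at E15 and 43.7 to 61.4 at P14 and overlapped at every step. From E15 to P14 Tlr2 was 1.40-fold lower (-0.48 ± 0.18, edgeR adjusted p = 0.04), and this call held in 8 of 16 alternatives. It was lost with library sizes alone (-0.24, edgeR adjusted p = 0.303) and without E13 saline 2, E15 saline 2 or 3, or P14 saline 1, 2 or 3 male (-0.26 to -0.51), and with the block (-0.67, edgeR adjusted p = 0.06). The Tlr2 change from E13 to E15 was 0.42 ± 0.19, called only without E15 saline 1 (0.58, edgeR adjusted p = 0.0143). In all, 2 of 10 members were called higher at E15 than at E13 and none lower, and 4 were called higher and 1 lower at P14 than at E15, near or below the 26.7% and 52.8% of all genes called at these steps. The median change of the members was 0.22 and 0.17, beside 0.04 and 0.03 for all genes.

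Shares of cells with at least 1 UMI followed the same order for Tlr3 with and without equal depth. Tlr3 was seen in a median of 17.7% of microglia per E13 library, 20.3% at E15 and 33.2% at P14, and after thinning each cell to 2000 UMIs in 3.17%, 4.84% and 15.46%. For Ifih1 the unthinned medians were 13.7%, 9.08% and 7.59%, and thinned they were 1.86%, 1.67% and 2.90%. For Ddx58 they were 12.7%, 11.2% and 12.6%, and thinned 1.499%, 2.12% and 4.81%. The unthinned order therefore turned with depth for Ifih1, since median UMIs per cell ranged over libraries from 8109 to 26242 at E13 and from 3655 to 6796 at P14. Thinning left 9476 of 12072, 19270 of 20799 and 26430 of 28118 cells. In 1438 neuron-like cells of 5 E15 libraries, which should lack Tlr3, the median share was 0.221% unthinned and 0 thinned, at median depths of 1848 to 3916 UMIs.

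MIA moved no member past the threshold at any stage. At E13 the MIA mean of Tlr3 was 16.3 ± 4.49 CPM beside 14.4 ± 2.16 in saline (log2 change 0.12 ± 0.18, 95% interval -0.29 to 0.52, edgeR adjusted p = 1). At E15 it was 22.0 ± 8.24 beside 24.1 ± 7.16 (-0.11 ± 0.32, -0.84 to 0.62, edgeR adjusted p = 1). The E15 replicate numbers were taken as pairs, and Tlr3 was lower with MIA in all 3 pairs. With the pairs as a block the E15 change was -0.14 (edgeR adjusted p = 0.994). At P14 it was 87.1 ± 7.42 beside 87.6 ± 12.6 (0.01 ± 0.16, -0.34 to 0.37, edgeR adjusted p = 0.993). The intervals are those of the fits without the block. The background was the same for all genes: 0% of 12405, 13172 and 12983 genes were called by edgeR at E13, E15 and P14, with 117, 46 and 476 genes under an unadjusted p of 0.05 and 2, 1 and 1 called by DESeq2. Each count under 0.05 is below a 0.05 share of the genes tested, the share expected with no change. These fits without the block were thus conservative, and 0% called is not read as an absence of a response to MIA. The paper, with sex and sequencing batch as covariates, reported changed genes at these stages. The interaction between MIA and stage was also not called for any member, and Tlr3 had differences of -0.24 ± 0.36 (E15 minus E13) and 0.14 ± 0.36 (P14 minus E15, both edgeR adjusted p = 1). Over these and the nuclei contrasts, 71 values of a member were tested, and none passed in 1228 alternative analyses.

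**Figure D2:**
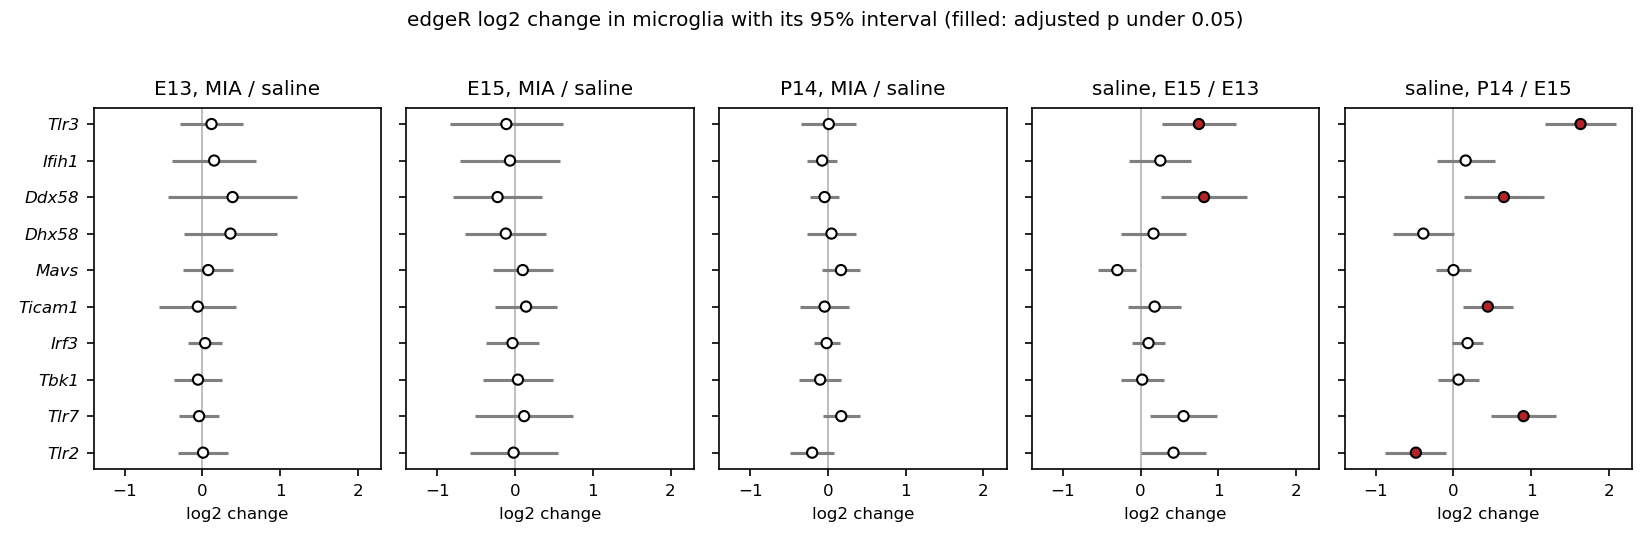
The log2 change of each member in microglia (horizontal axis) as fitted by edgeR with its 95% interval, for MIA against saline at E13, E15 and P14 and for E15 against E13 and P14 against E15 in saline libraries. Filled points have an adjusted p under 0.05: Tlr3 and Ddx58 at the first stage step, and Tlr3, Ddx58, Ticam1, Tlr7 and Tlr2, the last of these lower, at the second.

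The largest MIA values at E13 were those of the interferon-stimulated helicases. Ddx58 held 12.9, 16.8 and 5.81 CPM in E13 MIA libraries 1, 2 and 3 beside 12.6, 6.97 and 5.77 in saline, Dhx58 8.61, 10.2 and 4.79 beside 7.29, 5.20 and 4.81, and Ifih1 15.4, 12.9 and 7.45 beside 12.1, 9.74 and 8.70. MIA libraries 1 and 2 were thus the highest of the 6 for each of these genes and MIA 3 was at or near the lowest. The changes were 0.39 ± 0.37 for Ddx58 (95% interval -0.44 to 1.22), 0.36 ± 0.27 for Dhx58 (-0.23 to 0.95) and 0.15 ± 0.24 for Ifih1 (-0.39 to 0.69), none called (edgeR adjusted p = 1). The same 2 libraries held 1.87% and 1.42% interferon-responsive microglia, against 0.362% in MIA 3 and 0.271% to 0.485% in saline. These are shares of only 267 and 352 microglia, in the small libraries with many shared barcodes. The summed markers of Ms4a7 microglia or border macrophages stood at 2144, 1145 and 658 CPM in MIA 1, 2 and 3. In saline 1, 2 and 3 they stood at 2063, 651 and 562 CPM. The part of these shares and levels in the helicase values was not tested. Leaving MIA 1 and 2 out gave -0.47, -0.21 and -0.40 with MIA 3 alone in its group, assumed to vary like the saline libraries.

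At E15 and P14 none of the other members was called either. At E15 their changes lay between -0.23 ± 0.25 (Ddx58, 95% interval -0.79 to 0.34) and 0.14 ± 0.17 (Ticam1), each with an edgeR adjusted p of 1. At P14 they lay between -0.20 ± 0.12 (Tlr2, -0.48 to 0.08) and 0.17 ± 0.10 (Tlr7, -0.06 to 0.41), with edgeR adjusted p from 0.937 to 0.98. For Tlr7 the P14 MIA libraries held 142 and 168 CPM beside 130 to 149 in saline, so that MIA 2 was above the saline range. For Tlr2 the P14 MIA libraries held 40.0 and 48.8 CPM beside 43.7 to 61.4, so that MIA 1 was below it. For Ddx58 the E15 change minus the E13 change was -0.63 ± 0.43 (-1.54 to 0.29, edgeR adjusted p = 1).

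Within microglia the helicases were highest in interferon-responsive cells. Clusters were built without the 10 members, and the levels below are pooled over cells with exact Poisson intervals for counting error, as a description. In 431 embryonic interferon-responsive microglia, Ifih1 stood at 139.7 CPM (130 to 150), Ddx58 at 140.0 (130 to 150) and Dhx58 at 70.4 (63.6 to 77.6). In 6729 embryonic maturing or homeostatic microglia the same genes stood at 8.65, 11.7 and 4.84 CPM. Tlr3 was also higher in the interferon-responsive cells, at 95.2 CPM (87.3 to 104) beside 29.1. By contrast Mavs (12.6 beside 13.3), Ticam1 (7.29 beside 6.50), Tbk1 (45.8 beside 55.2), Irf3 (35.2 beside 46.7) and Tlr7 (58.1 beside 62.8) were closer, and Tlr2 stood at 99.5 beside 67.2. Many cells lie outside the named states: 16643 embryonic microglia, more than in any named state, and 6963 at P14 stayed unnamed, among them clusters led by S-phase genes (Dtl, Cdc6, Mcm4), by Hmox1 and by Slc12a2 and Ccl3. The unnamed embryonic cells held 8.12 CPM of Ifih1, 7.80 of Ddx58, 4.59 of Dhx58 and, by library, 10.2 to 21.9 of Tlr3. The helicases and Tlr3 therefore differed between these states by larger factors than the adaptors and the downstream kinase and factor.

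The pattern recurred at P14 with smaller gaps. In 978 interferon-responsive microglia Ifih1 held 47.2 CPM, Ddx58 83.7, Dhx58 31.0 and Tlr3 120, against 14.6, 24.8, 4.53 and 88.0 in 18455 homeostatic ones. Mavs, at 14.1 and 15.9, and Irf3, at 56.4 and 57.0, were again close. The other embryonic states are pooled over E13 and E15 libraries that gave them unequal numbers of cells, so they are read by library, over libraries with at least 50 cells of a state. Tlr3 lay between 17.8 and 38.9 CPM in the maturing or homeostatic cells of the 6 E15 libraries, between 10.9 and 21.7 in the dividing cells of all 12 and between 5.604 and 21.1 in the Ms4a7 cells of 10, and these ranges overlap. It lay between 5.78 and 15.05 CPM in the Spp1 or Clec7a cells of 4 libraries, a state that took 68.3% of its 1095 cells from E15 MIA 1, and between 51.8 and 137 in the interferon-responsive cells of 4 E15 libraries. No order was read among the states other than the interferon-responsive one. The Ms4a7 class of 1848 embryonic cells includes a cluster of 216 led by Lyve1, F13a1 and Pf4, genes of border macrophages, which was counted among the microglia. Dhx58 stood at 12.46 CPM (11.2 to 13.8) in that class, 4.30 to 15.7 by library beside 3.07 to 6.30 in maturing or homeostatic cells, Ddx58 at 15.4 and Ifih1 at 12.2. At P14 Tlr3 stood at 63.2 CPM in 1606 microglia of the Ccl3 and Ccl4 state, 48.3 to 81.0 by library beside 74.9 to 99.9 in the homeostatic cells. The P14 border macrophages, 206 cells that were not counted as microglia, held 21.1 CPM of Tlr3 (14.8 to 29.1), 54.7 of Tlr7 and 11.4 of Dhx58 (6.96 to 17.6). In 1642 neuron-like cells of the embryonic sorts Tlr3 was at 0.433 CPM and Tlr7 at 1.30, the background that free RNA may give in these libraries, whereas Irf3 and Tbk1 stood at 26.2 and 26.1. At P14 this background may be higher. In 172 neuron-like cells Tlr3 stood at 10.3 CPM (3.79 to 22.5, from 6 UMIs) and Tlr7 at 25.8 (14.4 to 42.5). Ddx58 stood at 20.6 CPM there (10.7 to 36.0).

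**Figure D3:**
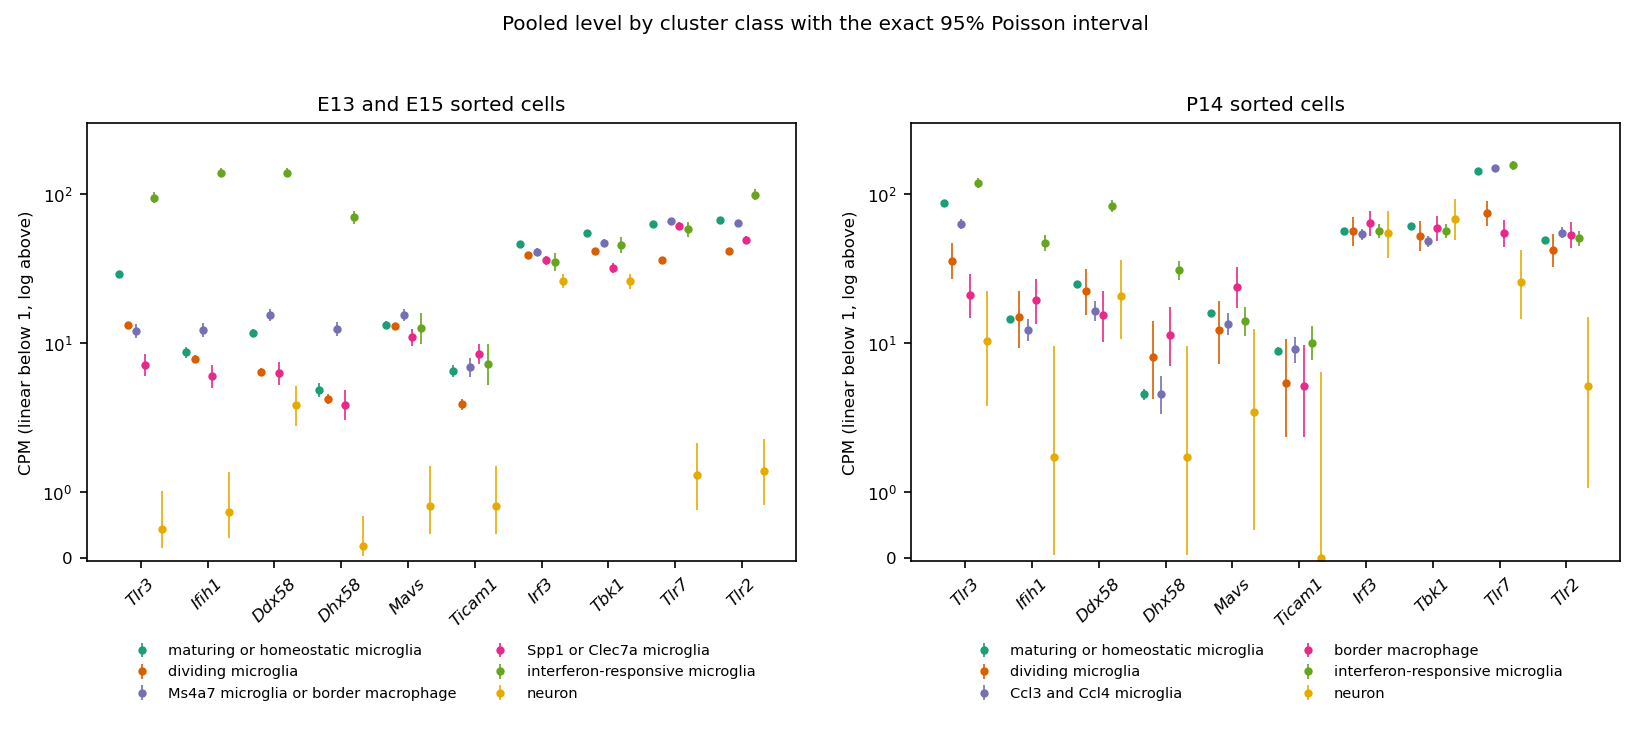
Pooled level of each member in CPM (vertical axis, linear below 1 and logarithmic above) by cluster class of the sorted cells, E13 and E15 on the left and P14 on the right, with exact 95% Poisson intervals. Interferon-responsive cells (green) stand above the other classes for Ifih1, Ddx58 and Dhx58, while Irf3 and Tbk1 lie close together in all classes.

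In nuclei of the whole cortex the members split by cell class. Of 41539 nuclei, 4386 to 5891 per library with 9120287 to 16408741 UMIs, the named classes held 8967 progenitors (apical, intermediate and dividing), 8000 migrating neurons, 14587 projection neurons and 2249 interneurons, while 6664 nuclei stayed unnamed. Nuclei hold other RNA than whole cells, so these levels are not set against those of the sorted cells. The libraries of replicate 2 were made with another Cell Ranger version and gene list than those of replicate 1. The microglial content goes against 2 labels. Csf1r had 23, 22, 4 and 2 UMIs in replicate 1 of wild-type saline, wild-type MIA, Csf1r-null saline and Csf1r-null MIA, but 11, 0, 10 and 1 in replicate 2. Microglia-like nuclei numbered 9, 9, 0 and 0, and 6, 0, 7 and 0. The libraries labelled wild-type MIA 2 and Csf1r-null saline 2 thus held the microglial content of the other genotype. Wild-type saline 1 also held 24.6% interneurons and striatal neurons, against 4.23% to 6.50% elsewhere.

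Tlr3 was found in neural progenitors. They held 81 of all 92 Tlr3 UMIs, or 88.0%, with 17.4% of all UMIs. Their level was 4.80 CPM (95% Poisson interval 3.81 to 5.97), and by library 2.46 and 2.79 in wild-type saline 1 and 2, 4.99 and 4.69 in wild-type MIA, 5.78 and 5.94 in Csf1r-null saline and 5.25 and 6.62 in Csf1r-null MIA. Every library therefore had Tlr3 in progenitors, including those with no microglia-like nuclei. Migrating and projection neurons had 0 Tlr3 UMIs, which allows up to 0.173 and 0.0707 CPM by the limit of 3 counts. The pooled progenitor level was 27.8-fold and 67.9-fold above these limits. These 2 ratios leave out the counting error of the progenitors and are not lower bounds. Interneurons had 1 UMI (ratio 21.5, interval 3.75 to 860). Among progenitor clusters, pooled over libraries, Tlr3 was at 8.82 CPM (6.55 to 11.6) in 3268 nuclei led by the apical genes Hes5, Hes1 and Notch2 and at 2.85 (1.66 to 4.56) in 3368 led by the intermediate progenitor genes Eomes, Neurog2 and Neurog1. The other 3 clusters were led by genes of cell division such as Top2a, Kif11 and Cenpe and are given by size only. Tlr3 stood at 3.54 CPM (1.77 to 6.34) in the cluster of 1290 nuclei, 1.14 (0.139 to 4.13) in that of 791 and 2.66 (0.0672 to 14.8) in that of 250.

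Mavs followed the same cells. Progenitors held 123 of 136 Mavs UMIs (90.4%), at 7.29 CPM (6.06 to 8.70) and 5.65 to 10.6 by library. There were 3 UMIs in projection neurons (ratio 103, interval 34.5 to 507) and 2 in migrating neurons (63.4, 17.2 to 529). Interneurons had 0, and the pooled progenitor level was 10.9-fold above the limit for 0 UMIs, with its own counting error left out. These are given with no test, since Mavs passed the filter on low counts only through progenitors and so had to differ. Among progenitor clusters, pooled over libraries, Mavs stood at 10.4 CPM (7.92 to 13.4) in the apical and 5.02 (3.39 to 7.17) in the intermediate cluster, and at 8.37 (5.47 to 12.3), 4.01 (1.61 to 8.25) and 2.66 (0.0672 to 14.8) in those of 1290, 791 and 250 nuclei.

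**Figure D4:**
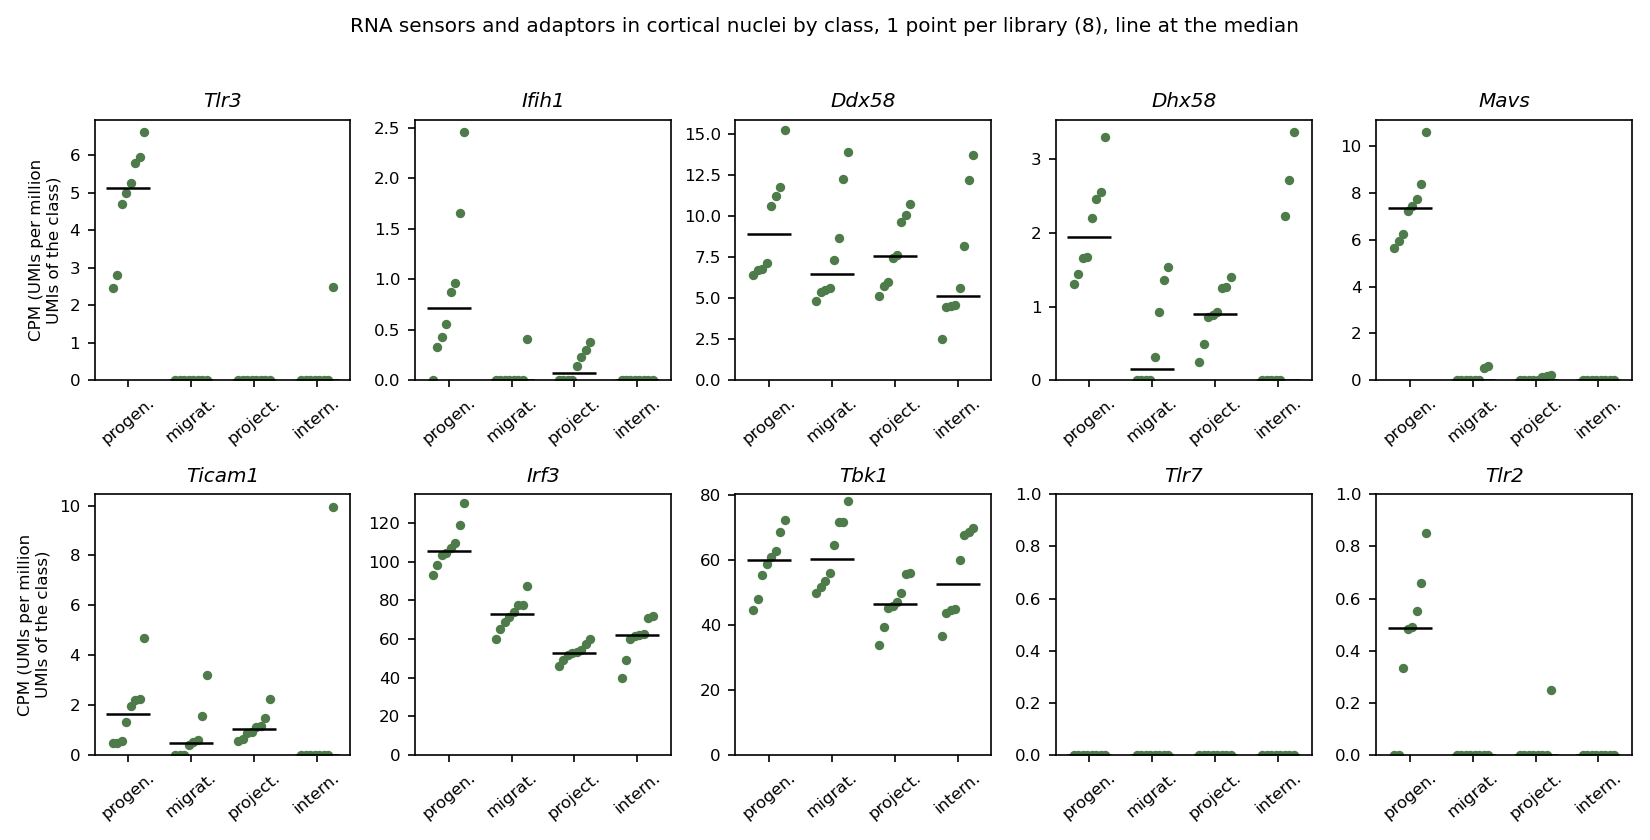
Level of each member in CPM (vertical axes, linear, from 0) in progenitors, migrating neurons, projection neurons and interneurons, with 1 point for each of the 8 nuclei libraries and a line at the median. Tlr3 and Mavs points lie above 0 in all 8 libraries in progenitors and at or near 0 in neurons, apart from 1 interneuron value of Tlr3, whereas Ddx58, Irf3 and Tbk1 are present in every class.

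Irf3 was present in every class and, of the 4 large classes, highest in progenitors. It stood at 109 CPM there, beside 52.6 in projection neurons, 72.4 in migrating neurons and 61.4 in interneurons, with library ranges of 93.2 to 130 in progenitors and 45.8 to 59.8 in projection neurons that did not overlap. In the small classes Irf3 stood at 123 CPM (95.2 to 157) in 138 Cajal-Retzius nuclei and at 220.3 (114 to 385) in 31 microglia-like nuclei. Irf3 was 1.71-fold higher in progenitors than in projection neurons (0.77 ± 0.06, edgeR adjusted p = 7.78e-17), in 8 of 8 libraries and in all 11 alternatives. As background, 41.1% of the 11834 genes tested were called higher and 37.5% lower in progenitors (78.6% in all), so such a call was no mark of these genes. Leaving out Mavs, 3 members passed the filter on low counts, and of these Irf3 was called. Ddx58 had similar levels in these classes, at 9.54, 8.17, 8.23 and 7.37 CPM in progenitors, migrating neurons, projection neurons and interneurons (-0.00 ± 0.16 against projection neurons, edgeR adjusted p = 0.992). Tbk1 stood at 59.5, 62.3, 46.9 and 57.8 CPM in the same order, with 0.08 ± 0.07 against projection neurons (edgeR adjusted p = 0.277). In CPM, Tbk1 was higher in progenitors in 8 of 8 libraries and Ddx58 in 7 of 8. With library sizes alone Tbk1 was called higher (0.34, edgeR adjusted p = 1.77e-05), but this scaling moved the median of all genes from 0.04 to 0.30.

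The other members were sparse in nuclei. Dhx58 had 34 UMIs in progenitors (2.02 CPM) and 37 in projection neurons (0.872), Ticam1 30 (1.78) and 45 (1.06), Ifih1 15 (0.889) and 6 (0.141), and Tlr2 7 (0.415) and 1. Tlr7 had 0 UMIs in all 4 classes. Without the filter on low counts, where 26% of 21720 genes were called higher in progenitors, Ifih1 (2.00, edgeR adjusted p = 0.0195) and Tlr2 (2.34, edgeR adjusted p = 0.0424, against 1 UMI in projection neurons) were past the threshold. Both had failed that filter, and their progenitor levels went down to 0 CPM by library. These are given as values and not as results. Tlr3 was also past the threshold, but against 0 UMIs, so its fitted value is not given. Dhx58 (0.83, edgeR adjusted p = 0.0816) and Ticam1 (0.33, edgeR adjusted p = 0.537) were not called. Interneurons against projection neurons gave no call for Irf3, Ddx58 or Tbk1, where 45.3% of genes were called (20.9% higher, 24.4% lower). For Tbk1 the change was 0.18, called with library sizes alone (0.27, edgeR adjusted p = 0.0274), which moved the median of all genes from -0.01 to 0.09.

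The 31 microglia-like nuclei held 6 UMIs each of Tlr3 and Tlr7 in 54473 UMIs, so Tlr3 stood at 110 CPM there (40.4 to 240). They also held 12 UMIs of Irf3, 8 of Tbk1, 2 of Tlr2, 1 each of Ifih1, Ddx58 and Dhx58, and 0 of Mavs and Ticam1. Among 57 nuclei of pericytes or endothelium, Ddx58 had 6 UMIs and Tlr3 2. At this depth an absence of the members with 0 UMIs from these small classes could not be read.

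In whole-cortex nuclei no member was called for MIA in either genotype, and Tlr3 rested on 5 to 17 UMIs per library. Tlr3 had 9 and 5 UMIs in wild-type saline 1 and 2 (0.747 and 0.446 CPM), 17 and 12 in wild-type MIA (1.04 and 1.17), 12 and 12 in Csf1r-null saline (0.890 and 1.32) and 12 and 13 in Csf1r-null MIA (0.856 and 1.27). Both wild-type saline libraries were the lowest, and the other 6 overlapped. The change with MIA was 0.80 ± 0.55 in wild-type nuclei (95% interval -0.47 to 2.08, edgeR adjusted p = 0.914) and -0.04 ± 0.53 in Csf1r-null nuclei (-1.27 to 1.18, edgeR adjusted p = 1), and the difference between genotypes was -0.84 ± 0.77 (-2.61 to 0.92, edgeR adjusted p = 1). Over progenitors alone the wild-type Tlr3 value was again 0.80 (edgeR adjusted p = 0.696), and over all nuclei without the 2 libraries that go against their labels it was 0.71 (edgeR adjusted p = 0.991). Without them the Csf1r-null value was 0.29 (edgeR adjusted p = 1) and the difference between genotypes -0.42 (edgeR adjusted p = 0.999), each with 1 library left in a group. Progenitors numbered 828 of 4515 and 904 of 4479 nuclei in wild-type saline, 1339 of 5787 and 1409 of 5085 in wild-type MIA, 1100 of 5719 and 1163 of 5677 in Csf1r-null saline, and 912 of 4386 and 1312 of 5891 in Csf1r-null MIA. The part of these numbers in the whole-cortex value of Tlr3 was not tested.

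Of the other members 6 were tested in nuclei, Ifih1, Tlr7 and Tlr2 being too low. In wild-type nuclei the change was 0.18 ± 0.16 for Irf3, 0.03 ± 0.19 for Tbk1, -0.02 ± 0.35 for Ddx58, -0.28 ± 0.45 for Mavs, -0.07 ± 0.55 for Dhx58 and 0.49 ± 0.55 for Ticam1, with edgeR adjusted p from 0.942 to 0.997. In Csf1r-null nuclei the changes lay between -0.34 ± 0.55 (Ticam1) and 0.30 ± 0.46 (Mavs). Here edgeR called 0% of 14386 genes in either genotype and in the difference between them, with 804, 41 and 264 genes under an unadjusted p of 0.05 and 4, 1 and 2 called by DESeq2. In nuclei too, 0% called is not read as an absence of a response.

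The other genes of the pathway are counted by list, beside the 26.7% of all genes called at E15 and 52.8% at P14. The lists of adaptors, of cofactors and of negative regulators were at or below these shares at both steps, as were the other cytoplasmic sensors at E15. Of 8 other Toll-like receptors tested, 3 were higher at E15 than at E13 (Tlr5, Tlr6 and Tlr9, by 1.72, 0.65 and 1.06 on the log2 scale), and 5 rose and 2 fell from E15 to P14, among them Tlr5 (3.21), Tlr12 (2.34), Tlr13 (0.83) and Tlr8 (-4.24). Of 8 genes of receptor trafficking and RNA uptake, 4 were higher at E15 (Unc93b1, the chaperone that carries TLR3 and TLR7 to the endosome, by 1.02 ± 0.12, edgeR adjusted p = 0.00037, with Cd14, Ly96 and Cnpy3), and 3 rose (among them Cd14, by 1.79) and 2 fell (among them Rftn1, by -1.19) at P14. Adaptors and kinases of Toll-like receptors gave 1 higher call of 8 (Irak2, 0.61), then 2 higher and 1 lower (Irak2 0.79, Traf6 0.46, Irak3 -1.14).

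Cofactors of the helicases and of MAVS mostly did not pass. Of 14, Tomm70a alone was lower at E15 (-0.54), and at P14 1 was higher (Tbkbp1, 0.53) and 4 lower, including Ikbke (-1.75) and Trim25, the ubiquitin ligase of RIG-I (-0.51). Of 7 negative regulators 0 were called at E15, and 2 rose (Tnfaip3 0.79, Atg12 0.56) and 1 fell (Nlrc5, -1.82) at P14. Among 11 other cytoplasmic sensors, Tmem173, which encodes STING, rose at both steps (0.57, then 1.45 with edgeR adjusted p = 1.02e-06), Mb21d1 (cGAS) was lower at E15 (-0.51), and at P14 1 more was higher (Aim2, 0.50) and 4 were lower, such as Zbp1 (-2.55) and Oas1a (-2.22).

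Most interferon targets were called higher at E15 and then lower at P14. Of 12 tested, 8 were higher and 0 lower at E15 than at E13 (median 2.16, with Cxcl10 4.30, Rsad2 3.53, Ifit3 3.00 and Ifit2 2.45), and 0 were higher and 11 lower at P14 (median -2.19, with Cxcl10 -5.58, Rsad2 -3.82, Mx1 -2.09 and Bst2 -1.27). Of 9 interferon regulatory and NF-kB factors, 3 rose at E15 (Irf7 by 1.93 ± 0.41, edgeR adjusted p = 0.00693, Stat2 0.64 and Irf1 0.32), and 6 rose (Irf5 0.70, Irf1 0.68 and Rela 0.56 among them) and 1 fell (Irf7, -1.98) at P14. Irf7 and 11 of the 12 targets were thus called lower at the step where Tlr3, Ddx58 and Tlr7 were called higher. Interferon-responsive cells were 0.271% to 0.485% of saline microglia at E13, 0.831%, 3.40% and 2.12% in E15 saline 1, 2 and 3, and 2.65% to 5.00% at P14. The summed level of the markers of that state was 324 to 503 CPM at E13, 366, 723 and 395 in E15 saline 1, 2 and 3, and 223 to 263 at P14, so that E15 saline 2 stood apart. Their part in these changes was not tested. None of 18 type I interferon genes passed the filter on low counts at either stage step. With MIA, Ifnb1 alone passed it, at E15 (-1.57 ± 1.35, edgeR adjusted p = 1), and no gene of these lists was called at any stage. At E13 the 11 interferon targets tested had a median of 0.96 beside 0.00 for all genes, with Rsad2 at 1.99 ± 0.77 (edgeR adjusted p = 1), and Irf7 was at 1.00 ± 0.34 (edgeR adjusted p = 1). Interferon-responsive cells were a larger share of E13 MIA 1 and 2, at 1.87% of 267 and 1.42% of 352 microglia. The part of that share in these values was not tested.

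In progenitor nuclei the pathway lists are read beside the 41.1% of all genes called higher and 37.5% called lower, and nothing about the pathway is read from their counts, since genes that passed the filter only through progenitors had to differ. Eif2ak2 encodes PKR, another sensor of double-stranded RNA. Its fitted difference from projection neurons was 3.83 ± 0.25 on the log2 scale. It too may have passed the filter only through progenitors, so this is given as a value and not as a result. Of 5 other sensors tested, 4 were higher (Eif2ak2 and Aim2, by 1.72, among them) and 1 lower (Adar, -0.46). Of 11 helicase and MAVS cofactors, 6 were higher (such as Zcchc3 1.45, Azi2 0.70 and Ddx3x 0.63) and 4 lower (such as Pqbp1, -0.55). Irak1 (0.88) and Tirap (1.35) were higher among 3 adaptors, 2 trafficking genes were higher (Hsp90b1 1.36, Cnpy3 0.28) and 2 lower (Rftn1 -3.26, Sidt2 -0.39) of 4, Cyld was lower (-0.92) among 4 negative regulators, and of 5 regulatory factors Nfkb1 was higher (1.05) and Stat2 lower (-1.15). None of the 9 other Toll-like receptors and of the interferon targets passed the filter on low counts in these sums.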

How the data were processed

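Single-cell and single-nucleus RNA was counted in 26 libraries (Chromium 3′ v3.1). The authors deposited UMI counts per gene and cell, made with Cell Ranger against mm10, of called cells for microglia and nuclei replicate 2 and of all 6794880 barcodes for nuclei replicate 1; the deposited file headers give version 3.1.0 for microglia and nuclei replicate 1 and 6.0.1 for nuclei replicate 2, the submitters' notes 3.1.0, and the study's methods differ. Cell Ranger counts by strand, which keeps the antisense genes at Tlr3, Dhx58 and Irf3 apart. The members and all gene lists were chosen with earlier results of these data known. Sorted cells were kept from 500 detected genes up if mitochondrial genes took no more than 20% of their UMIs, and nuclei from 500 UMIs and 200 genes up. The highest Scrublet scores were removed (0.8% per 1000 cells), because its automatic threshold marked as little as 0% of a library. Cells were clustered (scanpy 1.11.5, leidenalg 0.10.2; 2000 variable genes, 30 components, 20 neighbours, resolution 1) without the members, and classes were named from marker lists with at least 3 detected markers; a microglial cluster with at least 3 S-phase genes among its leading genes was left unnamed, a rule added after seeing the data. Counts were summed per library and class and tested with edgeR 4.0.16 (quasi-likelihood, TMM, filterByExpr, Benjamini-Hochberg over all genes, threshold 0.05; R 4.3.3), with library as a covariate between nuclei classes. DESeq2 1.42.0 was an alternative. Stage steps used 1 model of 10 saline libraries, MIA contrasts the 6 libraries of a stage, and nuclei contrasts all 8. All 10 members are named, and per list and comparison at most 4 called genes with the smallest p. Limits for a count of 0 are those of 3 counts; intervals cover counting error only. On simulated counts with known changes, 62 of 100 genes changed 2-fold and 100 of 100 changed 4-fold were recovered for E13 MIA, 52 and 100 for E15 against E13, 17 and 96 for the interaction of E15 and E13, and 26 and 97 for wild-type nuclei. Each simulation changed 200 genes at once, which eases the Benjamini-Hochberg threshold. The MIA fits of the data called 0 genes, so a single changed gene would be recovered less often there than these numbers show. Same-numbered E15 saline and MIA libraries deviated together (correlations 0.58, 0.19 and 0.60), so those numbers were taken as pairs. The labels give a number only, and E15 MIA 3 with saline 2 reached 0.159. The E13 numbers (0.34, 0.00 and 0.43) were not taken as pairs, and P14 has 2 pairs. Across treatment, E13 libraries 1, 2 and 3 shared 67, 33 and 9 barcodes with their own number, beside 0.0496, 0.102 and 3.11 expected by chance. The main E13 fit did not model the number.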

Additional observations from a re-analysis of the deposited data

How the results depend on the processing

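Of the 9 called values of members over all comparisons, 134 alternatives were computed, of which 103 kept the call and 31 lost it, in the same direction. In 10 alternatives a value that the main fit tested without a call gained one, and 0 called values reversed. These 10 leave out Tlr3, Ifih1 and Tlr2 in progenitors against projection neurons, past the threshold without the filter on low counts but not tested in the main fit. The 9 include Mavs between nuclei classes, which passed the filter only through progenitors. Counts of genes called for MIA moved from 0 to 2 at E13, 1 at E15, 1 at P14, and to 4 (wild-type), 1 (Csf1r-null) and 2 (their difference) in nuclei with DESeq2, and without the filter on low counts to 64, 5 and 11 in nuclei. Leaving out the 2 nuclei libraries that go against their labels gave 1 and 2 in wild-type and Csf1r-null nuclei. Leaving out 1 library at a time gave 0 to 6 at E13 (6 without MIA 3), 0 to 3 in wild-type nuclei, and 1906 (without E13 saline 2) to 5790 (without E15 saline 1) genes called for E15 against E13, beside 3596. Where 1 library was left in a group, it was assumed to vary like the other groups. Library sizes alone in place of TMM turned the split of P14 against E15 from 3482 higher and 3632 lower to 5382 and 2598, of progenitors against projection neurons from 4861 and 4439 to 6646 and 3211, and of interneurons from 2470 and 2885 to 3260 and 2313. Thinning moved the shares of cells with a UMI at E13, E15 and P14 to 3.17%, 4.84% and 15.46% for Tlr3, 1.86%, 1.67% and 2.90% for Ifih1, and 1.499%, 2.12% and 4.81% for Ddx58. Analyses with doublets kept were not run between nuclei classes. Except for the scaling and the thinning, whose construction shows it, the cause was not tested.

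With the replicate number as a block, genes called for MIA were 9 at E13, 0 at E15, 3 at P14 and 2 for the difference between genotypes, none of them a member, and 2168 for E15 against E13 and 4747 for P14 against E15. Saline libraries of E13 and E15 share only a number (correlations -0.12, -0.11 and 0.02). In nuclei the number also marks the Cell Ranger version (0.50 and 0.71).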

Other observations

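Over the 18 microglia libraries, the genes whose level followed that of Tlr3 most closely were Arhgap5, Gpr155, Cmtm6, Ttc28 and Elmo1. Their log2 CPM, each centred on its own mean, differed from that of Tlr3 by a root mean square of 0.159, 0.169, 0.189, 0.191 and 0.191 among 7909 genes with a mean of at least 10 CPM (a pseudocount of 1 CPM was added). Arhgap5, the closest, had means of 175 and 179 CPM in E13 saline and MIA libraries, 271 and 268 at E15 and 976 and 920 at P14. Of the members, Tlr7 ranked 166 (0.398) and Ddx58 495 (0.54). The points share stage, library depth and the scaling to CPM, so the order is a description of these libraries.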
